A study of Mus musculus with 24 samples.

Results

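The genes described here are 10 mouse genes of the integrated stress response (ISR): Atf4, Atf3, Ddit3, Trib3, Asns, Chac1, Sesn2, Psat1, Phgdh and Ddit4. They were taken by symbol from the deposited table of 35770 gene names. The list was chosen with earlier results of these data known. All 10 were listed, and all 10 were among the 13661 genes that passed the filter on low values.

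RNA was sequenced from 24 libraries of primary bone marrow-derived macrophages (BMDMs) of C57BL/6 mice, grown with the macrophage growth factor M-CSF, with 3 libraries in each of 8 groups. For 24 h the cells received control media (media), or 75% media conditioned for 48 h (CM) by LL2 cells (from mouse Lewis lung carcinoma) that were wild type (WT CM) or carried a knockout of KEAP1 (KEAP1 KO CM) or of NRF2 (NRF2 KO CM). Each medium was given with vehicle or with 100 nM CDDO-Me, which makes the groups media/vehicle, WT CM/vehicle, KEAP1 KO CM/vehicle, NRF2 KO CM/vehicle, media/CDDO-Me, WT CM/CDDO-Me, KEAP1 KO CM/CDDO-Me and NRF2 KO CM/CDDO-Me. CDDO-Me (bardoxolone methyl) is a synthetic oleanane triterpenoid that activates NRF2 by binding KEAP1. The knockouts were made with CRISPR in the cancer cells and not in the macrophages, so that every macrophage library was wild type at both genes. The control media was kept for the same time without cells.

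In the ISR, stress-sensing kinases phosphorylate the translation initiation factor eIF2α, which lowers protein synthesis in general but favours translation of the Atf4 mRNA. ATF4 then switches on genes for amino acid synthesis, amino acid uptake, feedback and, under lasting stress, cell death, often by binding a C/EBP-ATF composite element. Since ATF4 is set largely at translation, the level of its mRNA is not a measure of the protein. In macrophages the response is known to be set off by amino acid shortage, oxidative stress and load on the endoplasmic reticulum (ER).

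By role, the members were 3 transcription factors (Atf4, Atf3 and Ddit3, which encodes CHOP), the pseudokinase Trib3, which feeds back on ATF4, 3 enzymes of amino acid synthesis (Asns for asparagine, and Phgdh and Psat1 for consecutive steps of serine synthesis), the glutathione-degrading enzyme Chac1, and 2 stress-induced inhibitors of the growth kinase complex TORC1 (Sesn2, a leucine sensor, and Ddit4, also called REDD1). In GRCm39 with the GENCODE annotation, Atf4 lies at chr15:80139372-80141745 (plus strand), Atf3 at chr1:190902493-190950241 (minus), Ddit3 at chr10:127124268-127132163 (plus) and Trib3 at chr2:152179337-152191958 (minus). Asns lies at chr6:7671667-7728461 (minus), Chac1 at chr2:119180757-119184866 (plus) and Sesn2 at chr4:132219335-132237815 (minus). Psat1 lies at chr19:15882039-15924701 (minus), Phgdh at chr3:98220484-98255047 (minus) and Ddit4 at chr10:59785491-59788492 (minus). The annotation holds a further entry named Ddit3 inside the first, at chr10:127126698-127129622, and the deposited table, which goes by symbol, cannot tell them apart.

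The C/EBP-ATF composite element was searched as TGATGNAA, on both strands, in the RefSeq windows from 250 bases before to 50 bases after each start. It was found in the windows of 4 of 10 members, against 3.97% of 32851 windows of all genes. The matches are shown since they are the sequence that these members share, each with 11 bases on either side, in the direction of the gene, with the match in capitals. They are credited to RefSeq (GRCm38.p6) and were placed on GRCm39 by an exact and unique match.
Atf3 (chr1:190915622-190915651, minus strand): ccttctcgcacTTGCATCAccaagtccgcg
Trib3 (chr2:152185948-152185977, minus strand): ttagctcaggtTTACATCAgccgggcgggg
Asns (chr6:7693214-7693243, minus strand): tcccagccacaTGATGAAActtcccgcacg
Chac1 (chr2:119181519-119181548, plus strand): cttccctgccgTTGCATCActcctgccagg

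The Asns match read TGATGAAA in the direction of the gene, while those of Atf3, Trib3 and Chac1 were the reverse complement of the element. Windows placed on the canonical starts of GENCODE, of which 3.84% of 21770 held the element, gave a match for Atf3, Chac1 and Ddit3 but not for Trib3 and Asns, so the set of matches depended on the start that was used. The Ddit3 match is in the same orientation as that of Atf3.
Ddit3 (chr10:127126350-127126379, plus strand): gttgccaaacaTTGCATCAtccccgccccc
The core of the antioxidant response element that NRF2 binds, TGACNNNGC, was in the RefSeq windows of Asns, Sesn2 and Phgdh, against 12.4% of all windows, and in the GENCODE windows of Sesn2 and Phgdh, against 12.5%. Neither the cAMP response element TGACGTCA (1.79% of RefSeq and 2.44% of GENCODE windows) nor the E-box CACGTG (7.15% and 7.81%) was in a window of a member. A match describes the letters in the window and is not evidence of binding.

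Values are in TPM, a unit that corrects each gene's level for transcript length and sets the sum over a library to a fixed total, so the number of reads behind a value is unknown. Differences are on the scale of log2(TPM scaled between libraries + 1), which understates the change of genes with low TPM, and a gene is said to have risen, fallen or passed where limma's p, adjusted by the Benjamini-Hochberg method over the 13661 genes, was under 0.05. The replicate 3 libraries of NRF2 KO CM/vehicle and NRF2 KO CM/CDDO-Me stood apart, with 15702 and 16299 genes above 0 against 17817 to 18993 in the other 22. Results that rest on them are given with and without both. The 8 macrophage markers summed to between 14900 and 38400 TPM per library and none was at 0 in every library of a group. The 8 fibroblast or stromal markers summed to 297 to 3340 TPM, the 6 neutrophil markers to 12.3 to 776 TPM with Ly6g at 0 throughout 5 of the 8 groups, and the 4 epithelial or cancer cell markers to at most 4.72 TPM. The T cell markers reached 17 TPM, the dendritic markers 5.16 TPM and the B cell markers 1.42 TPM. In bulk RNA, fewer cells of a type and less RNA per cell cannot be told apart.

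Atf3 and Atf4 were the most abundant members, with medians over the 24 libraries of 390.8 and 132.9 TPM. Ddit3 (45.38 TPM), Psat1 (40.76 TPM), Asns (24.91 TPM), Phgdh (24.79 TPM), Ddit4 (20.75 TPM) and Sesn2 (16.32 TPM) followed, and Trib3 (5.579 TPM) and Chac1 (2.517 TPM) were low. Atf4 was highest on average in WT CM/vehicle (192.6 ± 6.78 TPM, SD, n = 3) and KEAP1 KO CM/vehicle (190 ± 16.2 TPM), groups whose libraries overlapped, and lowest in NRF2 KO CM/CDDO-Me (86.02 ± 16.8 TPM). Atf3 had another order, highest in media/CDDO-Me (544.9 ± 12.7 TPM) and WT CM/vehicle (529.7 ± 32.4 TPM), which overlapped, and lowest in KEAP1 KO CM/CDDO-Me (214.3 ± 17.8 TPM), which did not overlap with the next group, WT CM/CDDO-Me (254.6 ± 13.2 TPM). For the other 8 members, nearly every group overlapped with its neighbour in the order of means, the exception being Asns in media/CDDO-Me against NRF2 KO CM/CDDO-Me. There the lowest and highest TPM were 18.85 and 18.79, and the scaled values overlapped.

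**Figure D1:**
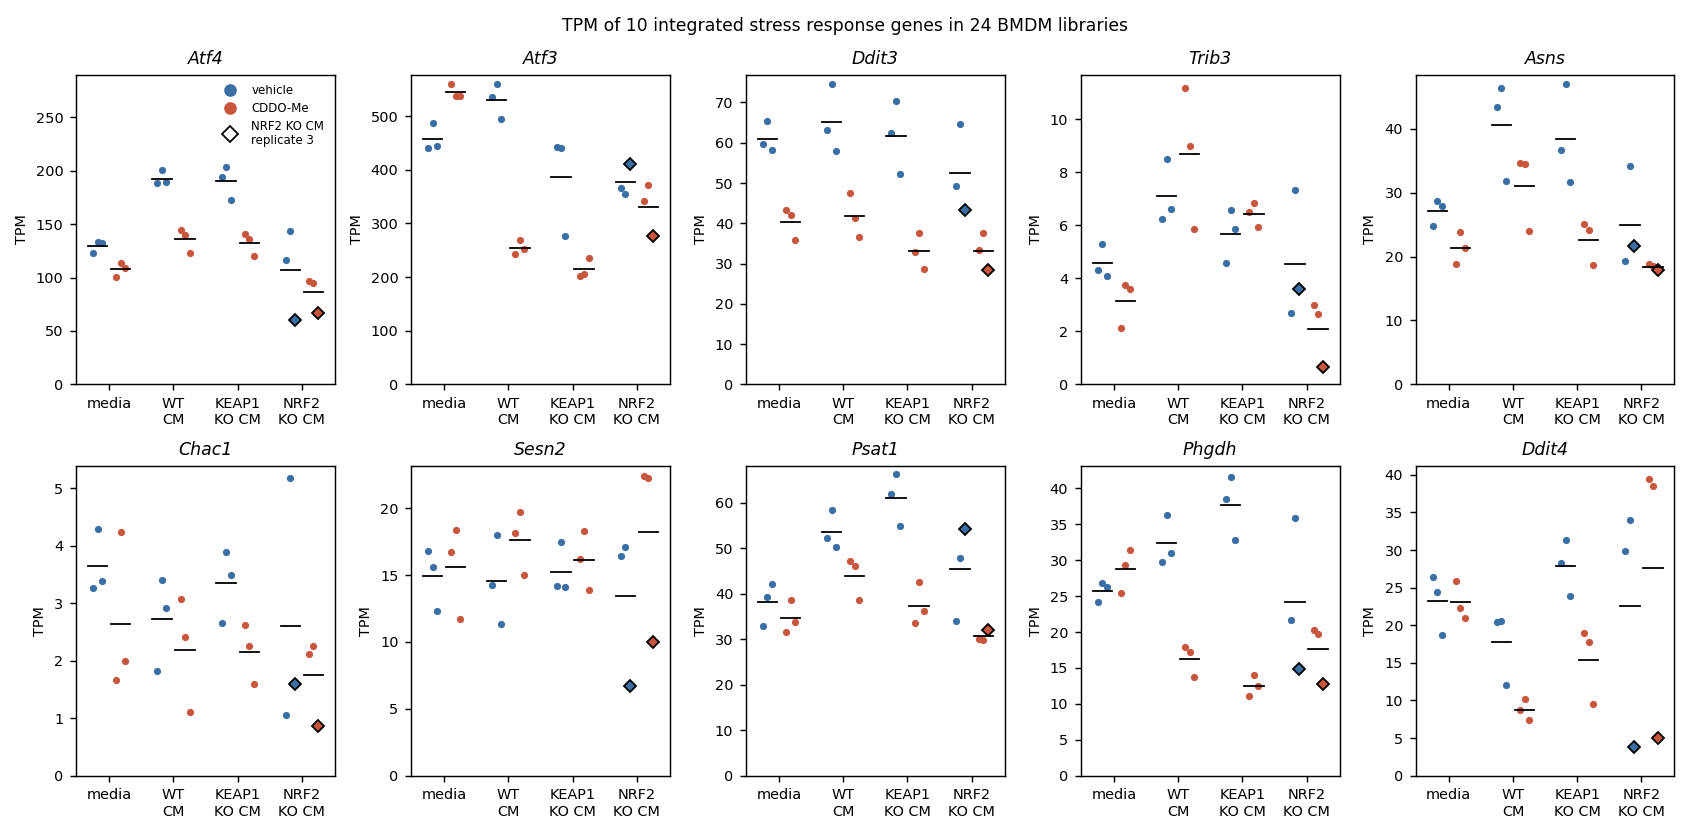
TPM of each of the 10 genes in the 24 libraries, with one panel per gene, groups on the horizontal axis, points for libraries and diamonds for the replicate 3 libraries of NRF2 KO CM. Atf3 sits between 202.8 and 268.6 TPM in the CDDO-Me groups of WT CM and KEAP1 KO CM, below every other library, while Chac1 stays between 0.8595 and 5.171 TPM throughout.

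Ddit3 was lower with CDDO-Me than with vehicle in all 4 media, and in WT CM and KEAP1 KO CM so were Atf3 and Phgdh. No member rose with CDDO-Me in any medium with equal library weights in the fit of 8 groups, whereas array weights called Atf3 higher in media, Trib3 and Sesn2 in WT CM, and Sesn2 in KEAP1 KO CM and NRF2 KO CM. Asns and Psat1 fell in KEAP1 KO CM, and Psat1 also in NRF2 KO CM. Thus 1 of 10 members passed in media, where 6.02% of all genes passed (2.79% lower), and 3 of 10 in WT CM, where 27.9% passed (13.4% lower). Of the members in KEAP1 KO CM, 5 of 10 passed, against 28.8% of all genes (14.3% lower), and in NRF2 KO CM 2 of 10, against 9.61% (4.74% lower).

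Ddit3, a factor that promotes cell death under lasting stress, was at 59.63, 65.34 and 58.09 TPM in media/vehicle and at 43.33, 42.12 and 35.74 TPM in media/CDDO-Me. In WT CM it went from 63.18, 74.62 and 57.84 TPM with vehicle to 47.42, 41.26 and 36.58 TPM with CDDO-Me. The libraries with CDDO-Me were below those with vehicle in each medium, without overlap. In KEAP1 KO CM the values were 62.35, 70.38 and 52.12 TPM with vehicle and 32.83, 37.65 and 28.62 TPM with CDDO-Me, and in NRF2 KO CM they were 49.19, 64.7 and 43.26 TPM and 33.36, 37.7 and 28.31 TPM. The log2 differences were −0.57 (adjusted p = 0.0075) in media, −0.50 (adjusted p = 0.0041) in WT CM, −0.71 (adjusted p = 0.00016) in KEAP1 KO CM and −0.60 (adjusted p = 0.0031) in NRF2 KO CM, each with an SE of 0.125. The fall was thus of similar size in the 4 media, and no interaction passed, with a difference between the effects in WT CM and in media of 0.07 (95% CI −0.30 to 0.43). In a fit of the NRF2 KO CM groups alone, the NRF2 KO CM call was lost (adjusted p = 0.21).

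Atf3, a stress-induced factor that restrains inflammatory genes in macrophages, had the highest TPM of the members. With all libraries at equal weight in the fit of 8 groups, its response is 1 of 2 that differed between media (interaction tests below). In media it was at 441.1, 486.8 and 443.9 TPM with vehicle and at 559.5, 538 and 537.1 TPM with CDDO-Me, a difference of 0.27 that did not pass (SE 0.138, adjusted p = 0.36). It passed with array weights (0.27, adjusted p = 0.022) and in a fit of the media groups alone (0.27, adjusted p = 0.047). In WT CM it was at 535.4, 559 and 494.8 TPM with vehicle and at 242.4, 268.6 and 252.8 TPM with CDDO-Me. The libraries of WT CM did not overlap, and TPM + 1 with CDDO-Me was 0.528 times that with vehicle (log2 −0.92, 95% CI −1.21 to −0.63, adjusted p = 2.8e-05). With KEAP1 KO CM it fell from 441.9, 439.9 and 277.4 TPM to 202.8, 205.2 and 234.7 TPM (log2 −0.65, SE 0.138, adjusted p = 0.0011). The NRF2 KO CM libraries overlapped, at 365.8, 355.6 and 410.6 TPM with vehicle and 341, 371 and 277 TPM with CDDO-Me (log2 −0.17, adjusted p = 0.57).

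Phgdh, the enzyme of the first step of serine synthesis from glycolysis, fell in the same groups. It was at 29.78, 36.33 and 31.06 TPM in WT CM/vehicle and at 17.95, 17.17 and 13.8 TPM in WT CM/CDDO-Me (log2 −0.83, SE 0.193, adjusted p = 0.0025). With KEAP1 KO CM it fell from 38.56, 41.61 and 32.84 TPM to 11.11, 14.01 and 12.47 TPM, 0.392 times the TPM + 1 with vehicle (log2 −1.35, adjusted p = 1.6e-05) and the largest difference of any member with CDDO-Me. The groups did not overlap in either CM. In media it was at 24.21, 26.86 and 26.25 TPM with vehicle and 25.37, 29.37 and 31.48 TPM with CDDO-Me, which overlapped (log2 0.17, adjusted p = 0.86). In NRF2 KO CM it was at 21.71, 35.89 and 14.9 TPM with vehicle and 20.34, 19.74 and 12.83 TPM with CDDO-Me (log2 −0.34, adjusted p = 0.35), groups that overlapped as well. That fall passed without NRF2 KO CM/vehicle replicate 3 (−0.58, adjusted p = 0.041) and not without both replicate 3 libraries (−0.42, adjusted p = 0.15). The interaction between WT CM and NRF2 KO CM did not pass (−0.49, adjusted p = 0.32). It passed without NRF2 KO CM/vehicle replicate 2 (−0.76, adjusted p = 0.026).

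Psat1, which acts directly after Phgdh, and Asns fell in KEAP1 KO CM. Psat1 went from 61.84, 66.31 and 54.95 TPM to 33.5, 42.58 and 36.13 TPM (log2 −0.53, SE 0.149, adjusted p = 0.01). Asns went from 36.61, 47.04 and 31.69 TPM to 25.06, 24.23 and 18.62 TPM (log2 −0.57, SE 0.179, adjusted p = 0.021), and its call was lost without KEAP1 KO CM/vehicle replicate 2 (log2 −0.44, adjusted p = 0.12) or KEAP1 KO CM/CDDO-Me replicate 3 (log2 −0.48, adjusted p = 0.09). Neither gene's groups overlapped in KEAP1 KO CM. In NRF2 KO CM, Psat1 was at 33.99, 47.8 and 54.24 TPM with vehicle and 29.98, 29.9 and 32.08 TPM with CDDO-Me, whose scaled values overlap although the TPM do not (log2 −0.49, adjusted p = 0.042). That call was lost without NRF2 KO CM/vehicle replicate 2 (−0.48, adjusted p = 0.082), without NRF2 KO CM/vehicle replicate 3 (−0.31, adjusted p = 0.16), without NRF2 KO CM/CDDO-Me replicate 1 (−0.47, adjusted p = 0.12) and without NRF2 KO CM/CDDO-Me replicate 2 (−0.43, adjusted p = 0.14). It was also lost without the filter (adjusted p = 0.064) and in a fit of those groups alone (adjusted p = 0.62).

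Over the list, the difference with CDDO-Me was below 0 for 6 of 10 members in media and for 8 of 10 in each CM. The median over the members was −0.18 in media, −0.31 in WT CM, −0.55 in KEAP1 KO CM and −0.29 in NRF2 KO CM. Over all genes tested the medians were between −0.02 and 0.02. Without scaling between libraries the all-gene median moved to −0.12 in WT CM and −0.17 in KEAP1 KO CM while those of the members were −0.44 and −0.71, and the share of all called genes that were higher moved from 51.84% to 39.13% and from 50.23% to 34.63%. These 4 comparisons use separate libraries. Trib3 was the member that was lower in media and NRF2 KO CM and higher in the other CM: its differences were −0.42 and −0.83 in the former and 0.34 and 0.31 in WT CM and KEAP1 KO CM, none of which passed. With replicate numbers as a block, the Trib3 difference in NRF2 KO CM passed (−0.83, adjusted p = 0.048 against 0.088 without the block). Same-numbered NRF2 KO CM libraries deviated from their group means together (r 0.504 to 0.719). Numbers 1 and 2 were hardly told apart. Vehicle replicate 1 had r = 0.473 with CDDO-Me replicate 2, and vehicle replicate 2 had r = 0.585 with CDDO-Me replicate 1. Leaving out NRF2 KO CM/vehicle replicate 1 (−1.08, adjusted p = 0.035) or NRF2 KO CM/CDDO-Me replicate 1 (−1.06, adjusted p = 0.047) also gave a call for Trib3.

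**Figure D2:**
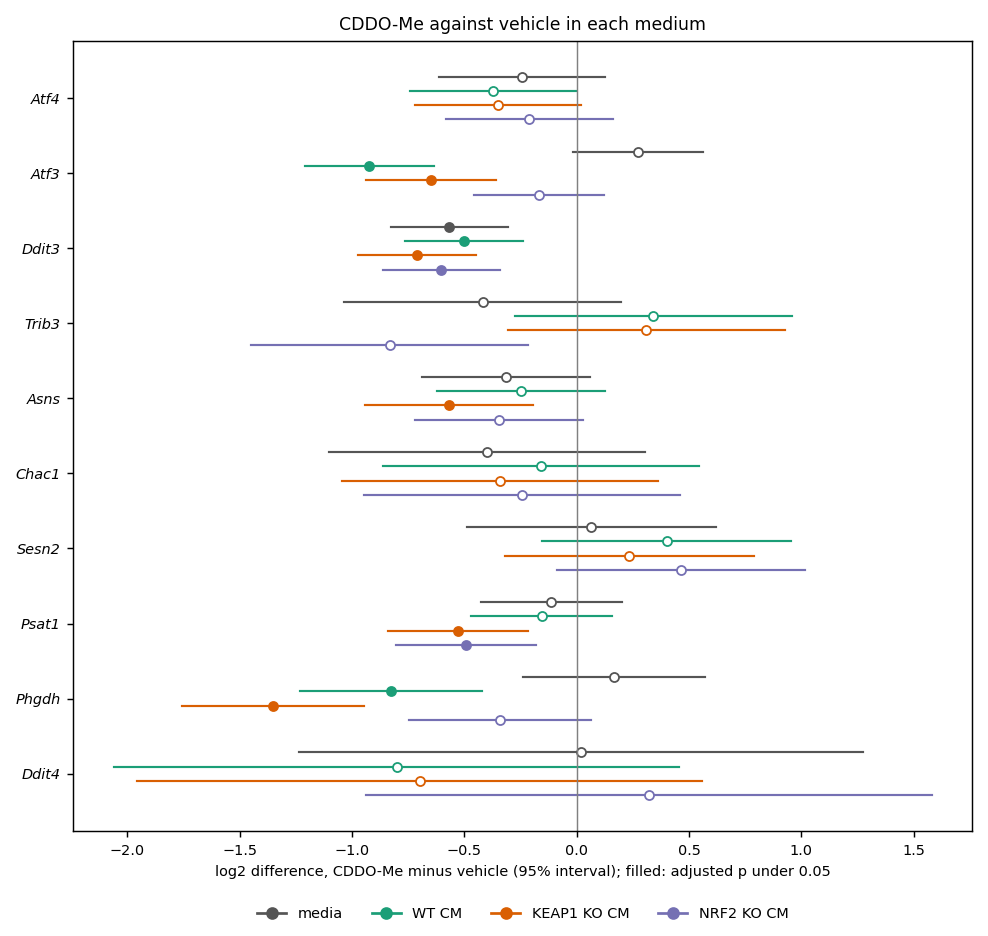
Log2 difference between CDDO-Me and vehicle for each gene in each of the 4 media, with 95% confidence intervals from limma, where filled symbols passed an adjusted p of 0.05. Ddit3 is filled in every medium, from −0.71 to −0.50, and Atf3 and Phgdh only in WT CM and KEAP1 KO CM.

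Marker sums of other cell types also moved with CDDO-Me, both in the CM where Atf3 and Phgdh fell and, for some types, in the other media. The 8 fibroblast or stromal markers summed to 874 to 1850 TPM in WT CM/vehicle and to 353 to 943 TPM in WT CM/CDDO-Me, and to 1230 to 2390 TPM and 297 to 1300 TPM in KEAP1 KO CM. In media the sums were 1230 to 2260 TPM with vehicle and 1040 to 2830 TPM with CDDO-Me. In NRF2 KO CM they were 1050 to 3340 TPM and 549 to 2250 TPM. These ranges overlapped between the treatments in every medium. The 6 neutrophil markers summed to 12.3 to 36.7 TPM in WT CM/vehicle and 53.5 to 67.5 TPM in WT CM/CDDO-Me, and to 15.7 to 29.9 TPM in media/vehicle and 84.2 to 134 TPM in media/CDDO-Me. In KEAP1 KO CM the neutrophil markers summed to 20.2 to 25.9 TPM with vehicle and 96.1 to 140 TPM with CDDO-Me. In NRF2 KO CM, where neither Atf3 nor Phgdh passed, they summed to 15.7 to 39.6 TPM and 159 to 776 TPM. Of these markers Mmp8 reached 711 TPM, S100a8 63.9 TPM and S100a9 20.4 TPM, while Ly6g, Camp and Ngp reached at most 4.29 TPM. The 4 dendritic markers summed to 0.743 to 1.13 TPM in WT CM/vehicle and 3.58 to 5.16 TPM in WT CM/CDDO-Me, and to 1.03 to 1.15 TPM and 2.47 to 3.17 TPM in KEAP1 KO CM. In media and NRF2 KO CM the dendritic sums lay between 1 and 1.71 TPM with either treatment. Of the dendritic markers Xcr1 reached 4.69 TPM, Zbtb46 1.36 TPM, Siglech 0.513 TPM and Flt3 0.239 TPM. The part of these cell types in the differences of Atf3 and Phgdh was not tested.

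The next comparison asks what the cancer CM did with vehicle alone. Atf4, Asns and Psat1 were higher with WT CM than with media, Psat1 was higher with KEAP1 KO CM, and with NRF2 KO CM no member passed. Of all genes, 7.23% passed with WT CM (4.38% higher) against 3 of 10 members, and 8.06% passed with KEAP1 KO CM (4.88% higher) against 1 of 10. With NRF2 KO CM, 0.00732% of all genes passed by limma, although 1649 had an unadjusted p under 0.05. These 3 comparisons share the media/vehicle libraries. The share of called genes that were higher with WT CM moved from 60.63% to 48.17% without scaling.

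Atf4 was at 122.8, 133.7 and 132.2 TPM in media/vehicle and at 188.3, 200.4 and 189.1 TPM in WT CM/vehicle, groups that did not overlap (log2 0.64, SE 0.177, adjusted p = 0.031). Its level in KEAP1 KO CM/vehicle, 194, 203.8 and 172.2 TPM, was also above every media/vehicle library, and the difference did not pass (log2 0.55, adjusted p = 0.065). In NRF2 KO CM/vehicle, Atf4 was at 116.8, 143.9 and 60.56 TPM, a range around that of media, with the lowest value in replicate 3 (log2 −0.36, adjusted p = 0.41). Without the NRF2 KO CM replicate 3 libraries in the fit, the KEAP1 KO CM difference, 0.55, had an adjusted p of 4.5e-05.

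Asns rose from 24.76, 28.74 and 27.91 TPM in media/vehicle to 43.43, 46.39 and 31.88 TPM in WT CM/vehicle (log2 0.62, SE 0.179, adjusted p = 0.041). Psat1 rose from 32.92, 39.38 and 42.13 TPM to 52.36, 58.4 and 50.28 TPM (log2 0.56, SE 0.149, adjusted p = 0.026), and with KEAP1 KO CM to the 54.95 to 66.31 TPM given above (log2 0.67, adjusted p = 0.0067). None of these groups overlapped with media/vehicle. The calls with WT CM were close to the threshold. For Atf4, leaving out any 1 of the 6 libraries lost the call, with differences of 0.60 to 0.67 and adjusted p between 0.071 and 0.12. For Asns the call was kept only without WT CM/vehicle replicate 3, and otherwise the differences were 0.53 to 0.65 with adjusted p up to 0.18. For Psat1 it was kept only without media/vehicle replicate 3, with differences otherwise from 0.46 to 0.58 and adjusted p up to 0.15. The Psat1 call with KEAP1 KO CM was lost only without media/vehicle replicate 1 (log2 0.57, adjusted p = 0.052). Without scaling or without the filter, Atf4 (adjusted p = 0.12 and 0.054) and Asns (adjusted p = 0.12 and 0.068) also lost the WT CM call.

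With CDDO-Me in every group, more members passed between WT CM and media than with vehicle, and in both directions. The same held for all genes, of which 14% were higher and 12.8% lower, against 4.38% and 2.85% with vehicle. Trib3, Asns, Psat1 and Atf4 were higher with WT CM and Atf3 and Phgdh were lower, which made 6 of 10 members against 26.8% of all genes. KEAP1 KO CM gave 3 of 10 members (Trib3 higher, Atf3 and Phgdh lower) against 22.6%, and NRF2 KO CM gave 1 of 10 (Atf3 lower) against 0.190%. The media/CDDO-Me libraries are shared by these 3 comparisons. Without scaling, the share of called genes that were higher moved from 52.38% to 33.58% for WT CM and from 53.59% to 37.45% for KEAP1 KO CM, as the all-gene medians moved to −0.16 and −0.15.

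Trib3 was at 2.137, 3.738 and 3.601 TPM in media/CDDO-Me, at 11.16, 8.982 and 5.874 TPM in WT CM/CDDO-Me and at 6.49, 6.834 and 5.925 TPM in KEAP1 KO CM/CDDO-Me. Every library of either CM was above those of media, by 1.36 (SE 0.294, adjusted p = 0.0015) for WT CM and 0.98 (adjusted p = 0.019) for KEAP1 KO CM. In NRF2 KO CM/CDDO-Me, Trib3 was at 2.978, 2.653 and 0.6417 TPM, overlapping with media (log2 −0.50, adjusted p = 0.78). The KEAP1 KO CM call was lost without media/CDDO-Me replicate 1 (0.79, adjusted p = 0.11) or KEAP1 KO CM/CDDO-Me replicate 1 (0.97, adjusted p = 0.054). It was also lost without scaling (0.86, adjusted p = 0.05 after rounding).

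Asns was at 18.85, 23.92 and 21.37 TPM in media/CDDO-Me and 34.72, 34.57 and 24 TPM in WT CM/CDDO-Me (log2 0.68, adjusted p = 0.0069). Psat1 was at 31.59, 38.64 and 33.82 TPM and at 47.21, 46.13 and 38.53 TPM in the same groups (log2 0.51, adjusted p = 0.015), and their scaled values did not overlap. Atf4 was at 100.9, 113.6 and 109.1 TPM in media/CDDO-Me and 144.4, 139.8 and 123.2 TPM in WT CM/CDDO-Me (log2 0.51, adjusted p = 0.039). The Atf4 call was lost on leaving out any 1 of the 6 libraries, with adjusted p up to 0.13. That of Psat1 was lost without media/CDDO-Me replicate 1 (0.44, adjusted p = 0.074) or WT CM/CDDO-Me replicate 1 (0.44, adjusted p = 0.07). Without scaling, Atf4 (0.33, adjusted p = 0.26), Asns (0.51, adjusted p = 0.064) and Psat1 (0.33, adjusted p = 0.096) kept their direction without passing, and Atf4 also did not pass without the filter (adjusted p = 0.066). Atf4 in KEAP1 KO CM/CDDO-Me, at 141.2, 135.7 and 119.8 TPM, had a difference of 0.44 that did not pass (adjusted p = 0.083). It passed with the replicate block (adjusted p = 0.049), with array weights (0.54, adjusted p = 1.3e-05) and in a fit of the groups compared alone (0.46, adjusted p = 0.0098). Same-numbered libraries of these groups deviated from their group means together (r 0.135 to 0.484).

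Atf3 and Phgdh moved the other way. With CDDO-Me, Atf3 was lower than in media by a log2 difference of −0.91 in WT CM (adjusted p = 4.1e-05) and −1.19 in KEAP1 KO CM (adjusted p = 1.8e-06), with no overlap. Phgdh was lower by −0.61 in WT CM (adjusted p = 0.023) and −0.99 in KEAP1 KO CM (adjusted p = 0.00067). With vehicle the same comparisons had given 0.28 (adjusted p = 0.3) and −0.27 (adjusted p = 0.3) for Atf3 and 0.38 (adjusted p = 0.32) and 0.53 (adjusted p = 0.11) for Phgdh. The WT CM call of Phgdh was lost without media/CDDO-Me replicate 2 (−0.62, adjusted p = 0.056) or replicate 3 (−0.51, adjusted p = 0.097) and without WT CM/CDDO-Me replicate 3 (−0.52, adjusted p = 0.11). The call of Atf3 in NRF2 KO CM (−0.72, adjusted p = 0.039) was lost on leaving out any 1 of the 6 libraries (−0.77 to −0.65, adjusted p up to 0.25), both NRF2 KO CM replicate 3 libraries (−0.64, adjusted p = 0.081), the filter (adjusted p = 0.058) or the other groups of the fit (adjusted p = 0.35), and with a pseudocount of 0.1 (adjusted p = 0.052).

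**Figure D3:**
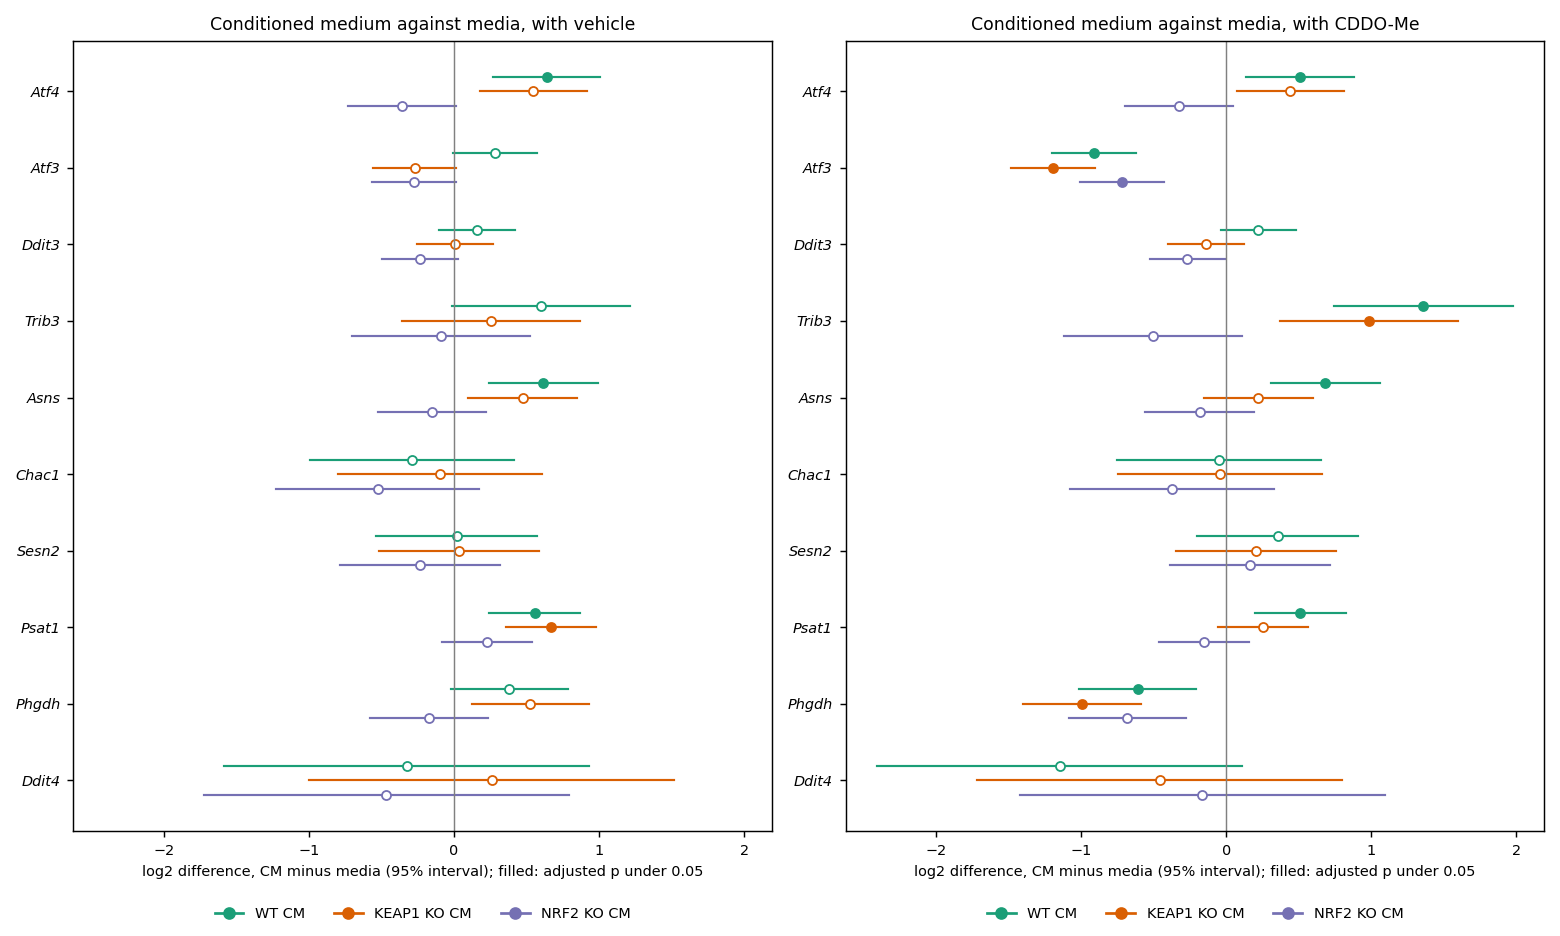
Log2 difference between each CM and media for each gene, with vehicle and with CDDO-Me, with 95% confidence intervals from limma and filled symbols for an adjusted p under 0.05. Atf3 lies at 0.28 with vehicle and −0.91 with CDDO-Me for WT CM, while Trib3, Asns, Psat1 and Atf4 lie above 0 in both.

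Between KEAP1 KO CM and WT CM, which asks whether the cancer genotype changed these genes in the macrophages, limma called no member with either treatment at equal library weights, and with array weights it called Atf3 with vehicle (−0.38, adjusted p = 0.0048) and Ddit3 with CDDO-Me (−0.43, adjusted p = 0.044). With vehicle 0% of all genes passed (350 had an unadjusted p under 0.05), and with CDDO-Me 0.0439% passed (560 unadjusted). The largest member difference with vehicle relative to its error was that of Atf3, lower with KEAP1 KO CM by −0.55 (95% CI −0.84 to −0.26, unadjusted p = 0.00075, adjusted p = 1), with no overlap of the scaled values. With CDDO-Me, Ddit3 differed by −0.36 (95% CI −0.62 to −0.10, adjusted p = 0.71) and Phgdh by −0.38 (95% CI −0.79 to 0.02, adjusted p = 1), again with no overlap of the scaled values. For Atf4 the differences were −0.09 (95% CI −0.46 to 0.28) with vehicle and −0.07 (95% CI −0.44 to 0.30) with CDDO-Me, and for Psat1 they were 0.11 (95% CI −0.20 to 0.43) and −0.26 (95% CI −0.57 to 0.05). The intervals of Ddit4, the member with the widest error, reached from −0.67 to 1.84 with vehicle.

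Between WT CM and NRF2 KO CM, several members were higher with WT CM. None was lower with all libraries at equal weight, but without both NRF2 KO CM replicate 3 libraries Ddit4 was lower with WT CM, by −0.74 with vehicle (adjusted p = 0.033, from 0.14 with all libraries) and −1.87 with CDDO-Me (adjusted p = 4.1e-06). Array weights called Ddit4 (−1.79, adjusted p = 1.5e-07) and Atf3 (−0.27, adjusted p = 0.013) lower with CDDO-Me. With vehicle, Atf4, Asns and Atf3 passed, 3 of 10 members against 10.6% of all genes (6.84% higher). With CDDO-Me, Trib3, Asns, Atf4, Psat1 and Ddit3 passed, 5 of 10 against 26.0% (14.3% higher). The share of called genes that were higher moved from 64.53% to 44.23% with vehicle and from 54.86% to 33.95% with CDDO-Me when libraries were not scaled. The call of Ddit3 with CDDO-Me did not hold without scaling (0.33, adjusted p = 0.13).

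Atf4 was higher with WT CM than with NRF2 KO CM by 1.00 with vehicle (SE 0.177, adjusted p = 0.00095) and 0.83 with CDDO-Me (adjusted p = 0.0014), where the NRF2 KO CM/CDDO-Me libraries were at 96.68, 94.67 and 66.7 TPM. Without both replicate 3 libraries of NRF2 KO CM the differences were 0.68 (adjusted p = 2.7e-05) and 0.69 (adjusted p = 5.1e-06). Asns, at 19.24, 34.17 and 21.62 TPM in NRF2 KO CM/vehicle and 18.79, 18.53 and 17.91 TPM in NRF2 KO CM/CDDO-Me, was higher with WT CM by 0.77 (adjusted p = 0.0087) and 0.87 (adjusted p = 0.0011). Atf3 was higher with WT CM with vehicle (0.56, adjusted p = 0.013) and not with CDDO-Me (−0.20, adjusted p = 0.32). In a fit of the vehicle groups alone, where the 12420 genes tested gave 170 calls in place of 1449, Atf4 (adjusted p = 0.18), Asns (adjusted p = 0.23) and Atf3 (adjusted p = 0.22) kept their direction and did not pass.

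With CDDO-Me, Trib3 was higher in WT CM than in NRF2 KO CM, with TPM + 1 at 3.64 times that of NRF2 KO CM (log2 1.86, 95% CI 1.25 to 2.48, adjusted p = 7.5e-05). The value was 1.47 without both replicate 3 libraries (adjusted p = 0.00038). Psat1 was higher by 0.66 (adjusted p = 0.0023) and Ddit3 by 0.49 (adjusted p = 0.0062). With vehicle, Ddit3 missed the threshold (0.39, adjusted p = 0.051), and it passed without NRF2 KO CM/vehicle replicate 2 (0.51, adjusted p = 0.014), as did Phgdh (0.83, adjusted p = 0.0031) and Trib3 (0.99, adjusted p = 0.033). Psat1 with vehicle (0.33, adjusted p = 0.16) passed without NRF2 KO CM/vehicle replicate 3 (0.51, adjusted p = 0.02).

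Whether CDDO-Me acted differently in different media was tested by interaction terms. The effect on Atf3 in WT CM was lower than that in media by −1.20 (95% CI −1.60 to −0.79, adjusted p = 0.00017) and the effect on Phgdh by −0.99 (95% CI −1.56 to −0.42, adjusted p = 0.016), while 15.3% of all genes had such a difference. In KEAP1 KO CM the effect was lower than that in media by −0.92 (adjusted p = 0.0023) for Atf3 and by −1.52 (adjusted p = 5e-04) for Phgdh, against 14.8% of all genes. Atf3 and Phgdh thus differed in response between media and these CM. With all libraries at equal weight in the fit of 8 groups, the interactions of the other 8 members did not pass. Array weights called Trib3 (1.26, adjusted p = 0.0027) and Ddit4 (−0.96, adjusted p = 0.0057) for WT CM against media. For KEAP1 KO CM against media they called Trib3 (1.13, adjusted p = 0.0086) and Psat1 (−0.43, adjusted p = 0.022). Fits of the compared groups alone called Ddit4 for WT CM (−0.82, adjusted p = 0.037) and Trib3 for KEAP1 KO CM (0.74, adjusted p = 0.046). The effect on Atf3 was also lower in WT CM than in NRF2 KO CM, by −0.75 (adjusted p = 0.012), against 13.4% of all genes. These 5 differences of Atf3 and Phgdh passed under each of 12 other settings and without each library in turn. The share of called genes with a positive difference moved from 55.2% to 40.45% for KEAP1 KO CM against media without scaling.

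No member's response differed between NRF2 KO CM and media or between KEAP1 KO CM and WT CM by limma, in which 0% of all genes passed (358 and 224 with an unadjusted p under 0.05). For Atf3 the difference between KEAP1 KO CM and WT CM was 0.27 (95% CI −0.13 to 0.68) and for Phgdh −0.53 (SE 0.273, adjusted p = 1). The Trib3 effect in WT CM exceeded that in NRF2 KO CM by 1.17 without passing (SE 0.416, adjusted p = 0.072). It passed without NRF2 KO CM/vehicle replicate 1 (1.42, adjusted p = 0.028), NRF2 KO CM/CDDO-Me replicate 1 (1.40, adjusted p = 0.036) or WT CM/CDDO-Me replicate 3 (1.39, adjusted p = 0.041).

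Chac1, Sesn2 and Ddit4 passed in none of the 14 comparisons with all libraries at equal weight in the fit of 8 groups. Chac1 was low in every library, so that its differences have wide errors (SE 0.336), the largest of the 14 being −0.53 for NRF2 KO CM against media with vehicle (95% CI −1.23 to 0.18). Sesn2 was between 6.672 and 22.38 TPM. Its mean was highest in NRF2 KO CM/CDDO-Me (18.2 ± 7.11 TPM) and WT CM/CDDO-Me (17.63 ± 2.37 TPM), and its 4 CDDO-Me differences were all above 0, from 0.06 to 0.46. Over the 14 comparisons Atf3 and Psat1 passed in 6, Ddit3 and Asns in 5, Atf4 and Phgdh in 4 and Trib3 in 3, and these comparisons share libraries.

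Ddit4 had the largest error of the members (SE 0.601), and the spread lay in 2 libraries. It was at 29.94, 34.06 and 3.818 TPM in NRF2 KO CM/vehicle and at 39.42, 38.56 and 4.986 TPM in NRF2 KO CM/CDDO-Me, where the last value of each is the replicate 3 library with few genes above 0. In WT CM it was at 20.46, 20.57 and 12.11 TPM with vehicle and 8.669, 10.14 and 7.34 TPM with CDDO-Me. The values in KEAP1 KO CM were 28.32, 31.31 and 23.89 TPM and 18.93, 17.76 and 9.566 TPM. The libraries with CDDO-Me were below those with vehicle in both CM, and in media they overlapped, at 26.38, 24.46 and 18.72 TPM with vehicle and 25.92, 22.36 and 20.92 TPM with CDDO-Me. All groups share one estimate of the spread, to which these 2 libraries contribute. With all libraries, array weights called Ddit4 lower with CDDO-Me in WT CM (−0.92, adjusted p = 0.00027) and KEAP1 KO CM (−0.58, adjusted p = 0.021). Fits of the compared groups alone, which hold neither of these 2 libraries, called it lower as well (−0.81, adjusted p = 0.016, and −0.70, adjusted p = 0.046).

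Without both libraries, Ddit4 fell with CDDO-Me in WT CM (−0.81, adjusted p = 0.0032 against 0.39 with all libraries) and in KEAP1 KO CM (−0.71, adjusted p = 0.0078 against 0.45). Its level with CDDO-Me was then lower in WT CM than in media (−1.17, adjusted p = 0.00015) and than in NRF2 KO CM (−1.87, adjusted p = 4.1e-06). With vehicle, the difference between WT CM and NRF2 KO CM turned from 0.14 (adjusted p = 0.9) to −0.74 (adjusted p = 0.033). The interaction between WT CM and media was then −0.84 (adjusted p = 0.035) and that between WT CM and NRF2 KO CM −1.13 (adjusted p = 0.016). The same was seen for Atf4, which then fell with CDDO-Me in all 4 media, by −0.23 (adjusted p = 0.046) in media, −0.39 (adjusted p = 0.00042) in WT CM, −0.36 (adjusted p = 0.00071) in KEAP1 KO CM and −0.40 (adjusted p = 0.0096) in NRF2 KO CM. With all libraries the Atf4 differences were −0.24, −0.37, −0.35 and −0.21, and none passed with equal weights in the fit of 8 groups. Array weights, which give less weight to libraries that vary more, called Atf4 lower in all 4 media with all libraries (adjusted p from 0.00056 to 0.0032), and fits of the compared groups alone called it lower in WT CM (adjusted p = 0.0048) and KEAP1 KO CM (adjusted p = 0.012).

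Further calls that arose without both libraries were those of Sesn2 with CDDO-Me in WT CM (0.39, adjusted p = 0.043), Phgdh in KEAP1 KO CM against media with vehicle (0.53, adjusted p = 0.011), Atf4 in KEAP1 KO CM against media with CDDO-Me (0.42, adjusted p = 0.00024), Psat1 in WT CM against NRF2 KO CM with vehicle (0.51, adjusted p = 0.01) and the Psat1 interaction between KEAP1 KO CM and media (−0.44, adjusted p = 0.047). Psat1 with CDDO-Me in NRF2 KO CM was lost (−0.38, adjusted p = 0.1).

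**Figure D4:**
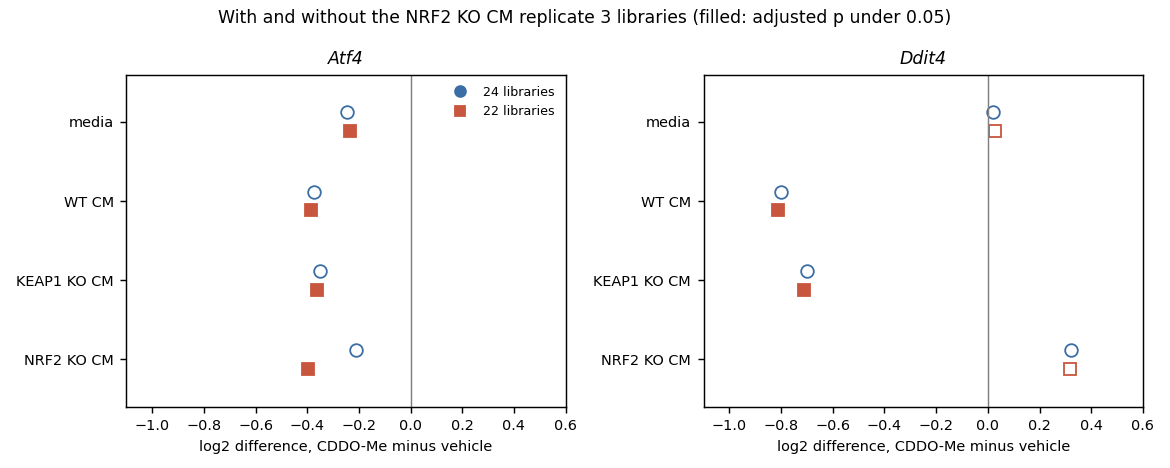
Log2 difference between CDDO-Me and vehicle for Atf4 and Ddit4 in the 4 media, with all 24 libraries and with the 22 libraries left when both NRF2 KO CM replicate 3 libraries are set aside, with filled symbols for an adjusted p under 0.05. The differences in media, WT CM and KEAP1 KO CM keep nearly the same values, Ddit4 in WT CM at −0.80 and −0.81, and more of them are filled with 22 libraries.

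The rest of the pathway was read from 12 lists of genes, described by their counts. With CDDO-Me, 3.23% of all genes rose and 2.79% fell in media, and 14.5% and 13.4% in WT CM. In KEAP1 KO CM 14.5% rose and 14.3% fell, and in NRF2 KO CM 4.87% and 4.74%. With vehicle, 4.38% were higher and 2.85% lower with WT CM than with media, and 4.88% and 3.18% with KEAP1 KO CM. These shares apply to every list below, and a count near them is not a result about the list. No list was tested as a set. Of the 4 eIF2α kinases, the sensors that start the ISR, none passed with CDDO-Me in media or NRF2 KO CM, and Eif2ak2, which encodes the interferon-inducible sensor PKR, rose in WT CM (0.81, adjusted p = 0.0048) and KEAP1 KO CM (0.82, adjusted p = 0.0041). Among the 8 eIF2 phosphatase and exchange factors, 1 rose and 2 fell with CDDO-Me in WT CM (14.5% and 13.4% of all genes). These were Ppp1r15b, a subunit that directs the phosphatase to eIF2α (0.73, adjusted p = 5.6e-05), and the exchange factor subunits Eif2b3 (−0.43, adjusted p = 0.0042) and Eif2b1 (−0.35, adjusted p = 0.026). For KEAP1 KO CM, 1 rose and 3 fell, and 0 passed in media and NRF2 KO CM. In the mitochondrial stress relay (4 genes, with Oma1 and Dele1), the single call with CDDO-Me was that of Dele1 in KEAP1 KO CM (−0.54, adjusted p = 0.02).

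Of the 12 NRF2 target genes, targets of the factor that CDDO-Me activates, those that rose were 10 in media, 9 in WT CM, 11 in KEAP1 KO CM and 10 in NRF2 KO CM with CDDO-Me, with none lower and medians from 1.26 to 2.06. Nqo1, a quinone reductase, rose by 4.86 in media (adjusted p = 2.2e-08), and Gclm, of glutathione synthesis, by 3.83 (adjusted p = 3e-08). Of the 13 amino acid transporters, 3 rose and 2 fell in media and 5 rose and 3 fell in WT CM. Slc7a11, which imports cystine and is a target of both ATF4 and NRF2, rose by 2.87 in media (adjusted p = 3.1e-05) and 2.06 in WT CM (adjusted p = 0.00016). Slc6a9, a glycine transporter, rose by 1.47 (adjusted p = 2e-04) and 1.76 (adjusted p = 3e-06), and Slc3a2, the partner chain of Slc7a11, by 0.71 (adjusted p = 0.023) and 1.61 (adjusted p = 9.3e-07).

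Of 21 aminoacyl-tRNA synthetases, which charge tRNAs and are in part ATF4 targets, 1 rose with CDDO-Me in media (Eprs1, 0.54, adjusted p = 0.0048). In WT CM 3 rose and 4 fell, against 14.5% and 13.4% of all genes. Wars1, which is also induced by interferon, rose most there (2.88, adjusted p = 3.5e-11), and Farsb (−0.71, adjusted p = 0.00047) and Iars1 (−0.63, adjusted p = 0.00057) fell. With vehicle, 5 of 21 were higher with WT CM than with media and none lower (median 0.29, against 0.01 over all genes), and 5 of 21 with KEAP1 KO CM (median 0.33). Of 15 serine, one-carbon and amino acid enzymes tested, none passed with CDDO-Me in media, none fell in WT CM, and 4 fell in KEAP1 KO CM. With vehicle, 2 of these 15 were higher with WT CM, Mthfd2, a mitochondrial folate enzyme and ATF4 target (1.13, adjusted p = 0.0039), and Gpt2 (0.86, adjusted p = 0.013), both named after their values were seen.

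The ER chaperone and degradation genes of the other ER stress arms, 22 in all, had 4 higher and 0 lower with WT CM than with media (median 0.41) and 11 higher and 0 lower with KEAP1 KO CM (median 0.49), both with vehicle. With CDDO-Me 0 of 22 passed in media, and 2 rose and 3 fell in WT CM (14.5% and 13.4% of all genes). The latter included Pdia4, which folds ER proteins (−1.27, adjusted p = 0.00019), and Herpud1 (−0.70, adjusted p = 0.0011), while Atf6, an ER stress sensor, rose (0.70, adjusted p = 0.011). Pdia4 was also the gene of the list with the largest difference between WT CM and media with vehicle (1.59, adjusted p = 8.9e-05). Of 19 bZIP partners and related factors, 2 were higher with WT CM with vehicle (Batf3, 2.44, adjusted p = 1.9e-05, and Batf, 1.12, adjusted p = 0.00029, named after their values were seen). With CDDO-Me, 2 of 19 rose and 1 fell in WT CM, against 14.5% and 13.4% of all genes. Among them, Maff rose (0.93, adjusted p = 0.03) and Batf3 fell (−0.86, adjusted p = 0.04). In media Nupr1, a stress-induced cofactor, fell (−1.15, adjusted p = 0.014).

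Of 15 other stress response targets tested, 1 rose and 1 fell with CDDO-Me in media, the autophagy receptor Sqstm1, which is also an NRF2 target (0.95, adjusted p = 0.00018), and Gadd45a (−0.85, adjusted p = 0.018). In WT CM 4 rose and 2 fell, among them Rrm2, which makes deoxynucleotides (−2.16, adjusted p = 3.5e-06), and Gadd45a (−1.06, adjusted p = 0.00057). The sestrins and TORC1 regulators (11 genes) had 1 lower in media and 1 higher and 5 lower in WT CM. Of all genes, 2.79% were lower in media, and 14.5% were higher and 13.4% lower in WT CM. Sesn1, the relative of Sesn2 that is best known as a p53 target, fell in media (−0.46, adjusted p = 0.022) and in WT CM (−1.06, adjusted p = 6e-07), and Rragd, which tethers TORC1 to lysosomes, fell in WT CM (−1.82, adjusted p = 2.7e-06). Of 12 glucocorticoid and hypoxia responsive genes, listed because Ddit4 answers to both signals, 2 rose in media (Slc2a1, a glucose transporter, 1.15, adjusted p = 0.0013, and Klf9, 0.99, adjusted p = 0.005). In WT CM 1 rose and 3 fell, with Adm (−1.55, adjusted p = 0.014) and Fkbp5 (−0.84, adjusted p = 0.0012) lower.

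**Figure D5:**
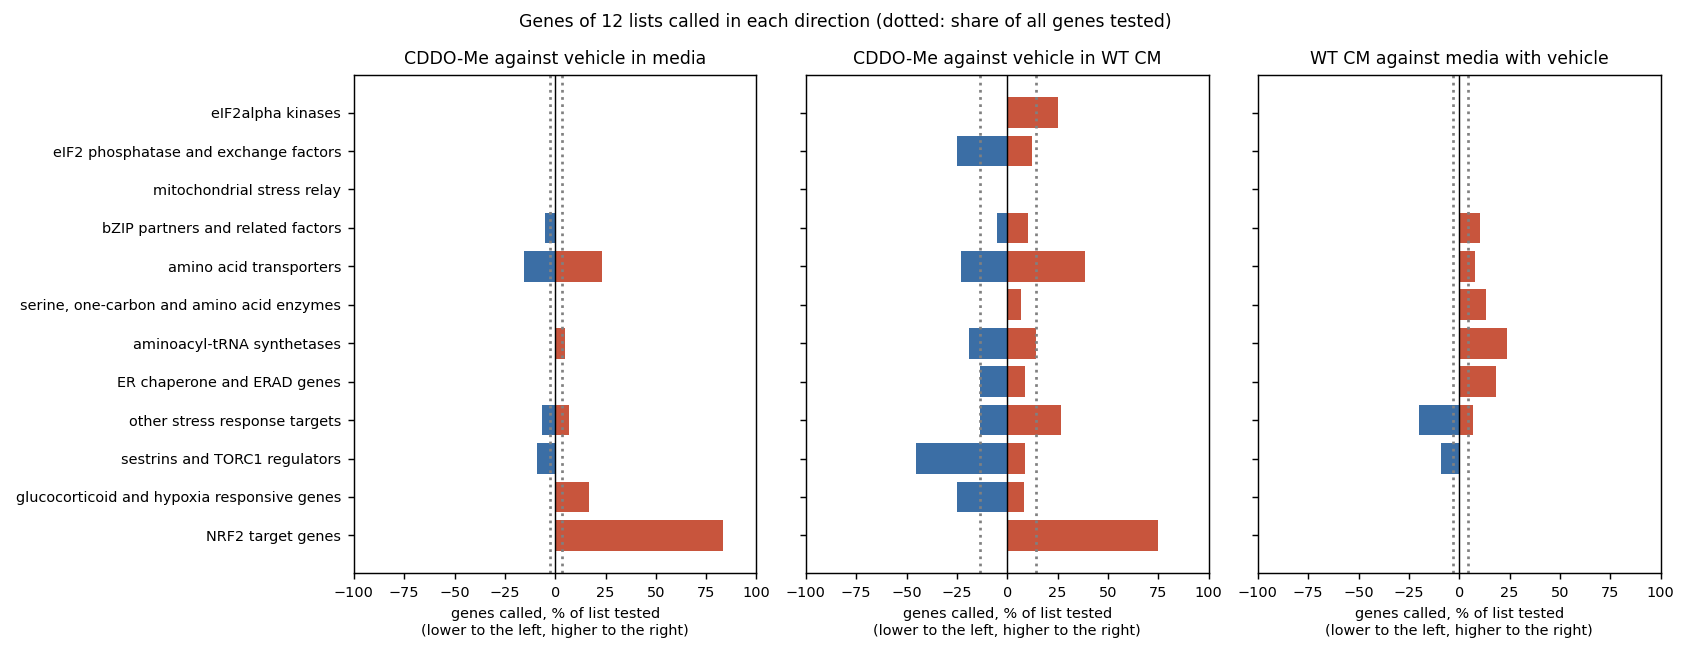
Share of each gene list that passed an adjusted p of 0.05, higher or lower, for CDDO-Me in media, CDDO-Me in WT CM, and WT CM against media with vehicle, with dotted lines for the share of all genes. The NRF2 target genes stand at 10 of 12 higher with CDDO-Me in media, and the 22 ER chaperone and degradation genes at 4 higher with WT CM.

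Across the 24 libraries the members did not vary as one block. Asns and Psat1 had a Pearson r of 0.849 and Atf4 and Asns one of 0.832, while Atf4 and Atf3 had one of 0.027. Within groups, after each group's mean was taken out, these were 0.493, 0.358 and −0.219. Atf3 and Phgdh, with r = 0.685 over all libraries, had −0.037 within groups. The gene outside the members most like Atf4 was Creld2, an ER stress gene (r = 0.947), for Asns it was the synthetase Yars1 (r = 0.871), for Psat1 Anp32b (r = 0.901) with the synthetase Sars1 next (r = 0.888), and for Trib3 Bloc1s6 (r = 0.878), with Mthfd2 also among its nearest genes (r = 0.867). The other leading genes were Arhgap25 for Atf3 (r = 0.853), Acss1 for Ddit3 (r = 0.935), Srm, of spermidine synthesis, for Phgdh (r = 0.927), Plod3 for Sesn2 (r = 0.923), Hic1 for Ddit4 (r = 0.934) and Dnajb3 for Chac1 (r = 0.706). These values describe the 24 libraries, which share their groups and include the 2 that stood apart.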

How the data were processed

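The authors sequenced poly-A RNA, quantified it with kallisto on GRCm39 and deposited TPM in 1 table. In this table the 24 columns sum to 999365 to 999801 without a line that has no gene name (0.0199% to 0.0635%), which was left out. Members and gene lists were chosen with earlier results of these data known. TPM were scaled by trimmed means of M values (30% of M and 5% of A trimmed). For genes above 1 TPM in at least 3 libraries, log2(scaled TPM + 1) was fitted with limma 3.58.1 in R 4.3.3 (8 groups, 16 residual degrees of freedom, eBayes with trend, two-sided p adjusted by the Benjamini-Hochberg method, threshold 0.05). The fit was tested on simulated data. Named genes were the 10 members, in each list up to 4 genes with the largest called differences with CDDO-Me in WT CM and in media, and the 3 genes most like each member. Of these, the text prints part, and some results under this rule are left unreported here.

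Replicates are described as independent samples. Whether they came from separate mice or cultures is not given in the sources used here, so p-values measure the spread between these libraries. Whether the code in the library names of each knockout stands for 1 clone is also not given. Same-numbered libraries deviated together (r above 0.1) in 71 of 84 pairs (mean r 0.256). The mean of −0.121 for different numbers follows largely from this, since a group's 3 deviations sum to 0. In 15 of 28 pairs of groups, all 3 same-numbered pairs had an r above 0.1. There the block was given beside a result whose call it changed.

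Alternatives were median-of-ratios scaling or none, no filter or a mean of at least 5 TPM, pseudocounts of 0.1, 0.5 and 5, no trend, array weights, a replicate block, the compared groups alone, both NRF2 KO CM replicate 3 libraries left out, and each library left out in turn.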

Additional observations from a re-analysis of the deposited data

Results flagged for a closer look

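The effect of CDDO-Me differed between media for Atf3 and Phgdh by limma's interaction terms. For Atf3 the difference of the log2 effects was −1.20 between WT CM and media, −0.92 between KEAP1 KO CM and media, and −0.75 between WT CM and NRF2 KO CM. For Phgdh it was −0.99 between WT CM and media and −1.52 between KEAP1 KO CM and media. Such interactions were common among all genes tested. Between WT CM and media 15.3% passed, against 2 of 10 members. Between KEAP1 KO CM and media 14.8% passed, against 2 of 10, and between WT CM and NRF2 KO CM 13.4%, against 1 of 10. These member counts are near the shares of all genes and are not a result about the list. In media, Atf3 was higher in all 3 libraries with CDDO-Me than in the 3 with vehicle, and in WT CM and KEAP1 KO CM it was lower in all 3. The fibroblast or stromal marker sums given in the report were lower with CDDO-Me in those CM, with ranges that overlapped. They were also lower in NRF2 KO CM, at 1050 to 3340 TPM with vehicle and 549 to 2250 TPM with CDDO-Me. Their part in these differences was not tested.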

How the results depend on the processing

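The direction and the side of the threshold of the members' differences were kept throughout by median-of-ratios scaling, a pseudocount of 0.5 and the fit without trend (190 of 190 each). They changed in 7 without scaling, 5 without the filter, 1 at a mean of 5 TPM, 1 at a pseudocount of 0.1, 1 at a pseudocount of 5, 6 with the replicate block, 21 with the compared groups alone, 19 without both NRF2 KO CM replicate 3 libraries and 39 with array weights. Chac1 could not be tested at a mean of 5 TPM, which it does not reach.

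The number of members called changed by over 1.5 times as follows. With array weights it was 5, 7, 8 and 4 for CDDO-Me in media and in CM of WT, KEAP1 KO and NRF2 KO cells, 5 and 4 for WT CM and KEAP1 KO CM against media with vehicle, 5 and 4 for KEAP1 KO CM and NRF2 KO CM against media with CDDO-Me, 1 and 1 for KEAP1 KO CM against WT CM with vehicle and with CDDO-Me, 6 for WT CM against NRF2 KO CM with vehicle, and 4, 4 and 3 for the interactions of WT CM with media, KEAP1 KO CM with media and WT CM with NRF2 KO CM. With the compared groups alone it was 2, 5 and 0 for CDDO-Me in media, WT CM and NRF2 KO CM, 6 and 4 for WT CM and KEAP1 KO CM against media with vehicle, 0 for NRF2 KO CM against media with CDDO-Me and 0 for WT CM against NRF2 KO CM with vehicle. Without the filter it was 1 for CDDO-Me in NRF2 KO CM, 1 for WT CM against media with vehicle and 0 for NRF2 KO CM against media with CDDO-Me, and the last was also 0 at a pseudocount of 0.1. Without scaling it was 1 and 3 for WT CM against media with vehicle and with CDDO-Me. Without both NRF2 KO CM replicate 3 libraries it was 2 and 6 for CDDO-Me in media and WT CM, 3 for KEAP1 KO CM against media with vehicle, 0 for NRF2 KO CM against media with CDDO-Me, 5 for WT CM against NRF2 KO CM with vehicle and 2 for the interaction of WT CM with NRF2 KO CM. The cause was not tested.

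With the replicate block it was 2 for KEAP1 KO CM against media with vehicle (Atf4 gained, 0.55, adjusted p = 0.033), 5 for WT CM against NRF2 KO CM with vehicle (Ddit3 gained, 0.39, adjusted p = 0.0055, and Phgdh, 0.56, adjusted p = 0.038) and 2 for the interaction of WT CM with NRF2 KO CM (Trib3 gained, 1.17, adjusted p = 0.04). In these comparisons not every same-numbered pair of libraries had an r above 0.1. The mean r was still higher for same than for different numbers. It was 0.244 against −0.118 between media/vehicle and KEAP1 KO CM/vehicle, and 0.145 against −0.07 between WT CM/vehicle and NRF2 KO CM/vehicle. Whether the numbers pair the samples is not given. The block changed no other call than those gained here and those of Trib3 and Atf4 in the report.

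Leaving out each library in turn gave 4 to 5 members for CDDO-Me in KEAP1 KO CM, 1 to 3 in NRF2 KO CM, 0 to 1 for either WT CM or KEAP1 KO CM against media with vehicle, 4 to 5 for WT CM, 2 to 3 for KEAP1 KO CM against media with CDDO-Me, 0 for the same with NRF2 KO CM, 3 to 6 and 5 to 6 for WT CM against NRF2 KO CM with vehicle and with CDDO-Me, and 1 to 2 for the interaction of WT CM with NRF2 KO CM.

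Ddit4 reversed in NRF2 KO CM against media with CDDO-Me under array weights (0.60, adjusted p = 0.048, from −0.16) and in WT CM against NRF2 KO CM with vehicle without both replicate 3 libraries (−0.74, adjusted p = 0.033). Counts over all genes rose with array weights, from 822 to 3521 for CDDO-Me in media and from 988 to 4114 for WT CM against media with vehicle, and with the block in media to 1464. The depth is unknown, so what it limits for Chac1 and Trib3 cannot be stated.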
